A study of Mus musculus with 24 samples.

Results

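The cell cycle genes described here are 46 genes of DNA replication and mitosis. They were taken as a list of proliferation genes by symbol and matched to Ensembl identifiers among the 56065 genes of the deposited table. All 46 matched a single row, and all 46 had a mean normalised read count of at least 10 in the fit of each comparison, so that none was lost there to the filter on low values. A normalised read count is an estimated number of reads divided by factors for library size and transcript length.

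Choroidal RNA was sequenced in 24 libraries. There were 4 libraries from wild type (WT) mice without laser, 9 from WT mice with laser, 4 from Ceacam1-/- mice without laser and 7 from Ceacam1-/- mice with laser. In the study's mice Ceacam1-/- means a homozygous germline deletion of the opening exons of Ceacam1, an adhesion receptor of epithelial, endothelial and myeloid cells, and WT means littermates, all on a C57BL/6J background. For the laser groups, an Nd:YAG laser was set to 150 mW, pulses of 100 ms and a spot of 200 µm, a procedure that opens the membrane under the pigment epithelium and is used as a model of choroidal neovascularization. The labels give neither the sex and age of the mice nor the time between laser and sampling, and do not say whether libraries of a group came from separate mice. The study's text counts the samples without laser as mice. For the laser groups no source does, and p-values there measure the spread between these samples, which may be technical. Added up over all genes, the normalised read counts came to 23704300 in the lowest library and 35094400 in the highest.

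Ceacam1 itself, at chr7:25161128-25177257 (minus strand, GRCm39), was read as a check of the labels. Without laser its normalised read count was 958, 5027, 1242 and 4596 in WT libraries 21, 22, 26 and 27, and 405, 505, 508 and 1171 in Ceacam1-/- libraries 23, 24, 25 and 28. With laser it ran from 774 to 8367 (median 996) in WT and from 67.8 to 905 (median 335) in Ceacam1-/-. The genotypes overlapped at each laser state, through Ceacam1-/- libraries 28 and 15, although the Ceacam1-/- values were lower by a log2 difference of -1.95 ± 0.60 (SE; limma, unadjusted p = 0.00988, adjusted p = 0.999) without and -2.17 ± 0.52 (unadjusted p = 0.000593, adjusted p = 0.104) with laser. Libraries 28 and 15, and WT libraries 22, 27 and 19 with the highest values, are those with high surface epithelium markers (below). In the other libraries the genotypes did not overlap. WT was at 958 and 1242 against 405 to 508 in Ceacam1-/- without laser, and at 774 to 1776 against 67.8 to 438 with laser. Reads from exons outside the deletion count towards these values, so a residual level does not test the deletion.

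The tissue label was set beside marker lists. All 11 endothelial, 9 pigment epithelium and 6 melanocyte markers were above 0 in every library. So were all 8 skeletal muscle, 10 photoreceptor and 7 lens markers, so that presence alone does not tell choroid from its neighbours. Some libraries stood apart. The mean log2(normalised read count + 1) of 10 surface epithelium markers (keratins and desmosomal genes, Krt15 the most abundant) was 14.49 in Ceacam1-/- library 28 and 13.51 and 11.13 in WT libraries 22 and 27, all without laser, against 4.28 to 9.47 in the other libraries without laser. It was also above 10 in WT library 19 (12.42) and Ceacam1-/- library 15 (14.38) with laser. The mean of 10 photoreceptor markers was above 14 in Ceacam1-/- libraries 14, 15 and 18 with laser (15.69, 14.85 and 15.66) and in WT library 21 (14.70) and Ceacam1-/- library 23 (14.81) without laser. The number called and the median fold change of the 46 genes are given below with and without these libraries. Counts by role, of other lists and single genes are given with all libraries unless stated.

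A cell that divides passes through phases that need different proteins. In late G1 phase E cyclins and E2F transcription factors switch on the genes of replication, the licensing factors Cdc6 and Cdt1 load the MCM helicase on DNA, and Pcna holds the polymerases at the fork in S phase. In G2 phase and mitosis cyclin B and Cdk1, aurora and polo kinases, kinesins and centromere proteins take over, under Foxm1 and the MuvB complex. Most cells of adult choroid are at rest, and endothelial cells, macrophages, fibroblasts and pigment epithelium have been found to divide after laser injury. In whole tissue, more dividing cells and more RNA per dividing cell cannot be told apart.

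The start regions of these genes were read from the RefSeq promoter windows of GRCm38.p6 (250 bases before to 50 after the start), which hold 38 of the 46 genes. Tpx2, Ccna2, Mcm4, Kif20a, Aurkb, Ccne2, Gins2 and Foxm1 had no entry. They were searched on both strands for the cell cycle homology region, CHR (TTTGAA or TTCGAA, letters bound by MuvB), the CCAAT box (CCAAT) and E2F letters (TTTGGCGC or TTTCCCGC or TTTGGCGG or TTTCCCGG or TTTGCCGC); the families were counted separately, so that matches may share bases. A CHR was present in 20 of 25 mitotic genes (80.0%) and in 2 of 13 genes of replication and entry to S phase (15.4%), against 19.4% of the windows of 27025 genes. E2F letters were present in 2 of the 25 mitotic genes (8.00%) and 6 of the 13 others (46.2%), against 3.79% of all genes. A CCAAT box was present in 80.0% and 61.5%, against 37.9%. These are matches of letters and not sites shown to be bound. The 4 promoters below show both kinds, with CHR, CCAAT and E2F matches in capitals, each 150 bases that end before the start that most protein-coding transcripts of the gene share in the annotation. Some other transcripts of Top2a, Cdk1 and Birc5 start farther upstream, so that their windows lie partly or, for Cdk1, wholly inside the full span of the gene. Top2a lies on chr11:98915042-98915191 (minus strand, GRCm39), Cdk1 on chr10:69188769-69188918 (minus strand), Birc5 on chr11:117739905-117740054 (plus strand) and Mcm5 on chr8:75835987-75836136 (plus strand).
Top2a: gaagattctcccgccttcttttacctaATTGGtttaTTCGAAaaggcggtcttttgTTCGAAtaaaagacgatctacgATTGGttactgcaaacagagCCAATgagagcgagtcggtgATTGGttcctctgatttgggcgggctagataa
Cdk1: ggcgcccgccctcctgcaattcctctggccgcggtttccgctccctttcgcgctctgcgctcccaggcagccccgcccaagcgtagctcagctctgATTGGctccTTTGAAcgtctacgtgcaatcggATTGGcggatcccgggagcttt
Birc5: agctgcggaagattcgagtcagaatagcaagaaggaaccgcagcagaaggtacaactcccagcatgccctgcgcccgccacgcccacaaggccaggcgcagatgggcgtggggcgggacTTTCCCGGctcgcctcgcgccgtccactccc
Mcm5: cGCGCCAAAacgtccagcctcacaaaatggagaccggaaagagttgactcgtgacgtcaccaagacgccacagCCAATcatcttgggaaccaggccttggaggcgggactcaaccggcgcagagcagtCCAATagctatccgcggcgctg
In Top2a, 2 CHR matches stand among CCAAT boxes, and in Cdk1 a CHR stands between a pair of CCAAT boxes. Birc5 and Mcm5 hold an E2F match, TTTCCCGG ending 32 bases before the RefSeq start in Birc5 and TTTGGCGC on the opposite strand ending 142 bases before it in Mcm5.

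**Figure D1:**
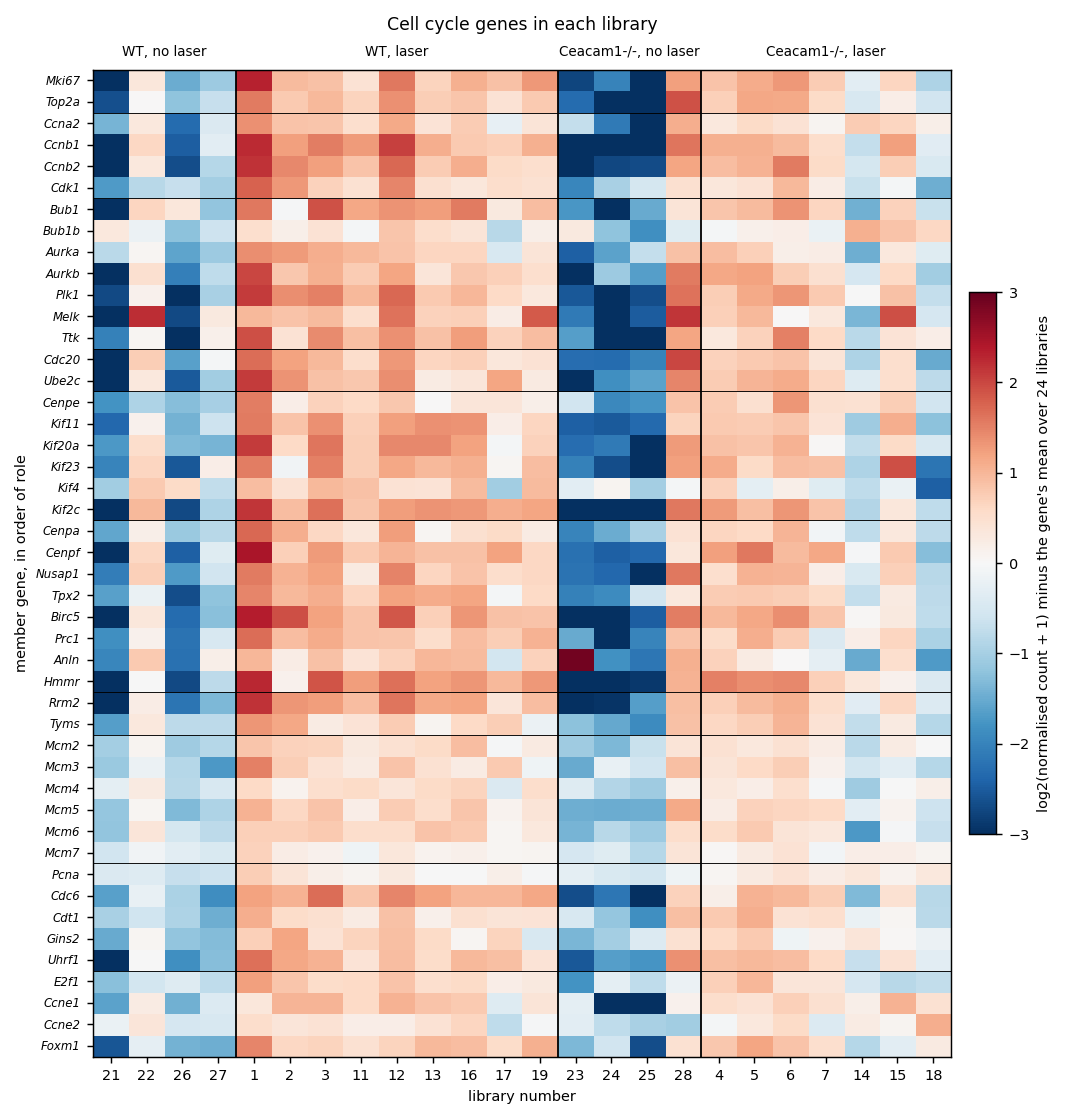
Each row is a cell cycle gene, grouped by role from proliferation markers at the top to transcription factors and E cyclins at the bottom, and each column a library. Colour is log2(normalised read count + 1) minus the gene's mean over the 24 libraries. WT and Ceacam1-/- libraries without laser are mostly blue, apart from libraries 22 and 28, which hold the highest value of their group in 42 of 46 genes each.

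Without laser the cell cycle genes were low and uneven. The mean log2(normalised read count + 1) over the 46 genes was 5.90, 8.24, 6.44 and 7.24 in WT libraries 21, 22, 26 and 27, and 6.23, 6.05, 6.004 and 8.88 in Ceacam1-/- libraries 23, 24, 25 and 28. With laser it ran from 8.36 to 9.51 (median 8.84) in WT and from 7.44 to 8.84 (median 8.48) in Ceacam1-/-. All 9 WT laser libraries were thus above all 4 WT libraries without laser, while Ceacam1-/- library 28 was above all 7 Ceacam1-/- laser libraries. Among the 8 libraries without laser, the 3 with the highest mean were 28, 22 and 27, the same 3 with the highest surface epithelium markers; the part of that tissue in the values was not tested. Library 22 was highest of its group in 42 genes and library 28 in 42, and library 28 was above every Ceacam1-/- laser library in 16.

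The spread of the single genes followed. The median SD of a cell cycle gene on the log2 scale was 1.04 over the 4 WT and 1.69 over the 4 Ceacam1-/- libraries without laser, against 0.44 and 0.60 for the median of 19950 tested genes. With laser it was 0.48 (all genes 0.46) in WT and 0.72 (all genes 0.62) in Ceacam1-/-. Pcna, the sliding clamp of the polymerases, which also serves DNA repair in resting cells, had the smallest SD without laser (0.15 in WT and 0.18 in Ceacam1-/-). Per kilobase of transcript it was also the most abundant of the 46 genes in every group, with a median normalised read count per kilobase of 756 in WT without laser, followed by Mcm6 (179) and Mcm7 (169), both subunits of the helicase. Cdc6, the licensing ATPase, was the lowest in that group at 5.32 per kilobase. In WT with laser the order began with Pcna (1226), the ubiquitin conjugating enzyme of the anaphase-promoting complex Ube2c (857; range 549 to 1977) and the survivin gene Birc5 (683; range 485 to 1506), whose ranges overlap. The checkpoint kinase Ttk was last (28.6), next to Cdc6 (29.3), and these did not differ beyond their spread (20.2 to 57.7 and 23.5 to 42.0).

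With laser, 28 of the 46 genes rose in WT choroid, none fell, and all 46 had a fold change above 0 (limma, adjusted p under 0.05 over 19950 genes; 41 had an unadjusted p under 0.05, as had 3993 of all genes). The background was 4.23% of all genes called higher and 1.05% called lower. The median log2 fold change of the 46 genes was 1.86, from 0.43 to 3.21, beside -0.10 for all genes tested. In 23 genes every WT laser library was above every WT library without laser, which held for 4.50% of all genes. By two-sided exact permutation tests on the 13 representative genes, p was between 0.0028 and 0.0056 (adjusted p from 0.0132 to 0.0210 over 52 such tests), where 0.0028 is the smallest that 9 against 4 libraries can give.

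Mki67 and Top2a mark dividing cells. Mki67, which encodes the Ki-67 protein that coats mitotic chromosomes (chr7:135291513-135318299, minus strand), was at 23.9, 442, 125 and 163 normalised read counts in WT libraries 21, 22, 26 and 27, and at 477 to 1740 (median 679) with laser. No laser library fell among those without laser, and the log2 fold change was 2.64 ± 0.69 (SE, adjusted p = 0.0248). In Ceacam1-/- libraries 23, 24, 25 and 28 without laser it was at 51.2, 86.7, 22.5 and 829.3, and at 183 to 873 (median 593) with laser. There the groups overlapped through library 28 alone (log2 fold change 2.34 ± 0.72, adjusted p = 0.0670). Top2a, the topoisomerase that untangles chromosomes, was at 71.2, 448, 194 and 277 in WT and 604 to 1310 (median 772) with laser (2.03 ± 0.62, adjusted p = 0.0575). The Ceacam1-/- values were 89.4, 55.7, 54.6 and 1668 without laser and 300.2 to 989 (median 662) with laser (1.99 ± 0.65, adjusted p = 0.0843). Top2a thus missed the threshold in both genotypes, although its WT groups did not overlap.

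**Figure D2:**
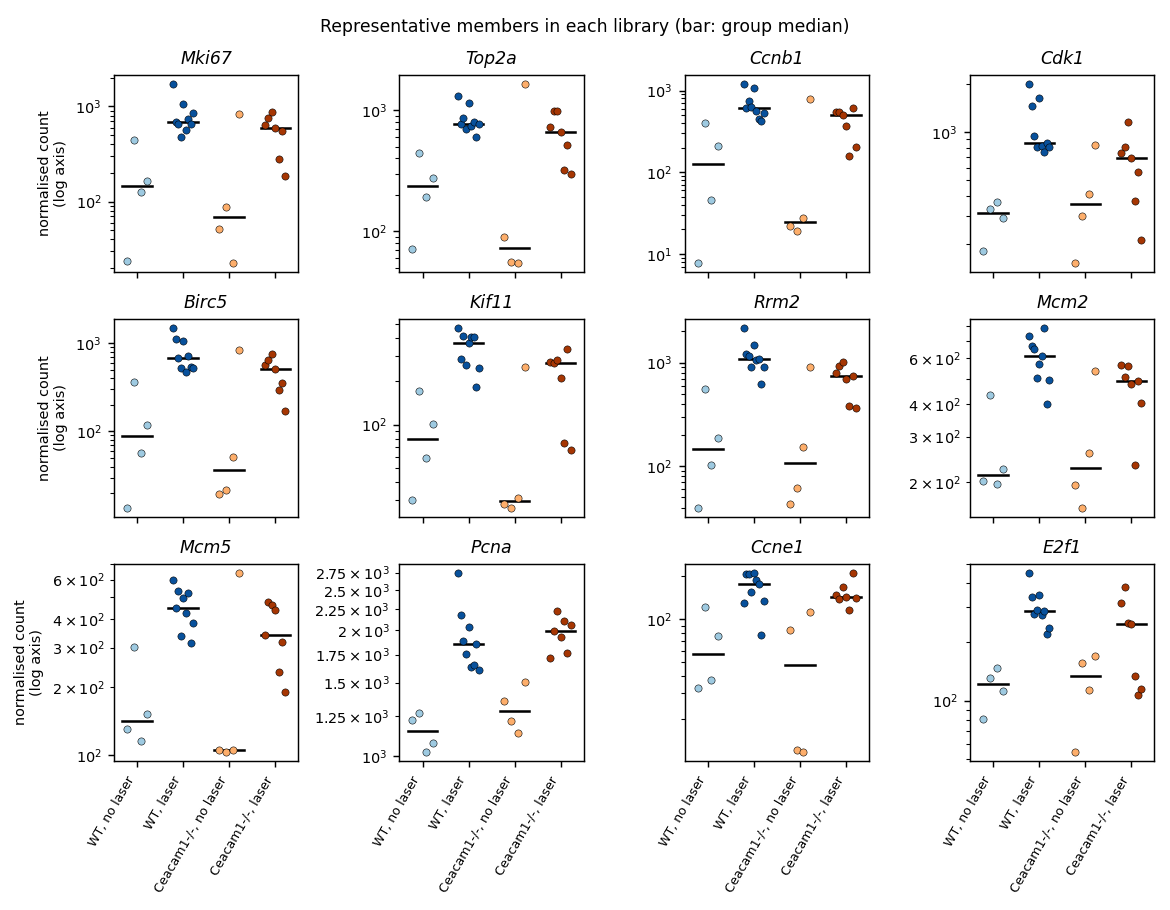
Normalised read counts (log axis) of 12 representative genes in each library, by group, with the group median as a bar. In the WT panels of Mki67, Ccnb1, Birc5 and Rrm2 all 9 laser libraries lie above the 4 libraries without laser, and 1 Ceacam1-/- library without laser, library 28, lies among the Ceacam1-/- laser libraries in Mki67 and Rrm2 and above them in Ccnb1 and Birc5.

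Of the mitotic cyclins and their kinase, 3 of 4 rose in WT and 1 of 4 in Ceacam1-/-. Ccnb1, cyclin B1, which brings Cdk1 into mitosis, was at 7.73, 396, 45.5 and 207 in WT libraries 21, 22, 26 and 27 and at 426 to 1219 (median 610) with laser. The log2 fold change was 3.10 ± 0.83 (adjusted p = 0.0275). In Ceacam1-/- it was at 22.2, 18.8, 27.7 and 788 without laser and 156 to 608 (median 501) with laser, so that library 28 alone exceeded every laser library (2.73 ± 0.86, adjusted p = 0.0744). Its partner Ccnb2, cyclin B2, passed in both, with 2.71 ± 0.67 in WT (adjusted p = 0.0169) and 2.54 ± 0.69 in Ceacam1-/- (adjusted p = 0.0413). Cdk1, the kinase itself, was at 181, 332, 367 and 290 in WT and at 746 to 2014 (median 852) with laser (1.89 ± 0.40, adjusted p = 0.00579). The Ceacam1-/- values were 152, 299, 410 and 828 without laser and 212 to 1159 (median 686) with laser (0.71 ± 0.42, adjusted p = 0.357). Ccna2, cyclin A2 of S and G2 phase, had 1.63 ± 0.53 and 1.73 ± 0.55 (adjusted p = 0.0735 and 0.0766).

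Of 7 mitotic and checkpoint kinases, 3 rose in WT and 0 in Ceacam1-/-. Plk1, polo kinase, went from 25.2, 185, 7.49 and 86.7 to between 212 and 729 (median 342) in WT (3.13 ± 0.71, adjusted p = 0.00938). Aurkb and Ttk, kinases of chromosome attachment, rose by 2.40 and 2.42 on the log2 scale. Bub1, Bub1b and Aurka had positive values below the threshold in both genotypes. Melk had log2 fold changes of 1.82 and 2.02 with SE of 0.91 and 0.95, and its highest WT value was in library 22 without laser (552). Of the anaphase-promoting complex partners, Ube2c rose in WT (2.53 ± 0.63, adjusted p = 0.0177) and Cdc20, its activator, had 1.89 ± 0.68 (adjusted p = 0.108).

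Of 6 mitotic kinesins, which move chromosomes and spindle poles, 3 rose in WT and 0 in Ceacam1-/-. Kif11, the motor that separates the poles, was at 30.0, 172, 58.6 and 101 in WT and at 181 to 468 (median 372) with laser (2.10 ± 0.54, adjusted p = 0.0227). In Ceacam1-/- it was at 27.97, 26.5, 30.7 and 252 without laser and 66.9 to 335 (median 267) with laser (1.89 ± 0.56, adjusted p = 0.0606). Cenpe and Kif2c, motors at the centromere, rose by 1.78 and 2.79 on the log2 scale in WT. Kif4, a motor of the chromosome arms, had 0.65 ± 0.45 in WT and -0.13 ± 0.47 in Ceacam1-/-, 1 of the 2 negative values of the whole set.

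Of 8 genes of centromere, spindle and cytokinesis, 6 rose in WT and 1 in Ceacam1-/-. Birc5, survivin, a subunit of the chromosomal passenger complex, had the largest log2 fold change of the 46 in WT. It was at 13.7, 365, 57.1 and 119 without laser and at 475 to 1475 (median 669) with laser (3.21 ± 0.76, adjusted p = 0.0124). The Ceacam1-/- values were 19.8, 21.7, 50.8 and 840 without laser and 170 to 758 (median 508) with laser (2.66 ± 0.79, adjusted p = 0.0593). Hmmr, a hyaluronan receptor that also serves the spindle, rose in both genotypes, by 3.10 ± 0.73 in WT (adjusted p = 0.0118) and 3.23 ± 0.76 in Ceacam1-/- (adjusted p = 0.0195). The spindle assembly factor Tpx2 rose by 2.34 ± 0.43 in WT (adjusted p = 0.00184). Cenpa and Cenpf of the centromere and Prc1 of the midzone also rose in WT. Anln, which encodes the contractile ring protein anillin, was at 2304 in Ceacam1-/- library 23 against 68.2 to 654 in the other 3 of that group, and its log2 fold change there was -0.29 ± 0.74. Anln is also made in other cells than dividing ones, myelinating glia among them.

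The genes of replication and entry to S phase had lower fold changes than those of mitosis, a difference given here without a test. Their median log2 fold change in WT was 1.43 over 17 genes, of which 11 rose, against 2.07 over 29 mitotic genes, of which 17 rose. In Ceacam1-/- the medians were 0.91, with 5 of 17 called, and 1.96, with 2 of 29 called. The median SE was 0.37 for the former and 0.67 for the latter in WT, so that smaller changes passed. Rrm2, the subunit of ribonucleotide reductase made in S phase, was at 39.9, 561, 104 and 189 in WT and at 624 to 2152 (median 1094) with laser (2.93 ± 0.60, adjusted p = 0.00458). In Ceacam1-/- it was at 43.4, 61.9, 153 and 907 without laser and 363 to 1011 (median 736) with laser (2.23 ± 0.63, adjusted p = 0.0487). Tyms, thymidylate synthase, had 1.30 ± 0.44 and 1.16 ± 0.45 and passed in neither.

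Of the 6 MCM helicase subunits 3 rose in WT, Mcm2, Mcm3 and Mcm5, and 0 in Ceacam1-/-. Mcm2 was at 203, 435, 196 and 225 in WT and at 400 to 783 (median 611) with laser (1.24 ± 0.28, adjusted p = 0.00938). The Ceacam1-/- values were 196, 160, 258 and 536 without laser and 233 to 563 (median 488) with laser (0.80 ± 0.29, adjusted p = 0.126). Mcm5 was at 131, 303, 116 and 153 in WT and 314 to 600 (median 451) with laser (1.43 ± 0.38, adjusted p = 0.0263). In Ceacam1-/- the values of Mcm5 were 106, 103, 106 and 643 without laser and 190 to 475 (median 342) with laser (1.01 ± 0.40, adjusted p = 0.150). The other 3 subunits had log2 fold changes of 0.73, 1.13 and 0.54 (Mcm4, Mcm6 and Mcm7) in WT.

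All 5 licensing and fork genes rose in WT and 2 in Ceacam1-/-. Pcna was at 1221, 1273, 1022 and 1074 in WT and at 1608 to 2748 (median 1861) with laser, 1.66-fold higher (0.73 ± 0.13 on the log2 scale, adjusted p = 0.0014). In Ceacam1-/- it was at 1359, 1214, 1137 and 1509 without laser and 1714 to 2229 (median 1989) with laser, 1.51-fold higher (0.60 ± 0.14, adjusted p = 0.0174), with no overlap in either genotype. Cdc6 rose by 2.34 ± 0.52 in WT (adjusted p = 0.00813) and 1.95 ± 0.54 in Ceacam1-/- (adjusted p = 0.0458). The Ceacam1-/- calls of Cdc6, Rrm2 and Ccnb2 were lost in 24, 25 and 15 of 38 other settings. Cdt1 (1.51 ± 0.37), the GINS subunit Gins2 (1.51 ± 0.32) and Uhrf1, which carries DNA methylation through replication (2.45 ± 0.54), rose in WT.

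The transcription factors rose in WT and the E cyclins passed in Ceacam1-/-. E2f1 was at 80.0, 130, 147 and 112 in WT and 219 to 451 (median 286) with laser (1.36 ± 0.33, adjusted p = 0.0148). The Ceacam1-/- values were 54.4, 155, 113 and 170 without laser and 107 to 380 (median 245) with laser (0.81 ± 0.34, adjusted p = 0.184). Foxm1, the activator of mitotic genes, rose from 25.9, 130, 59.0 and 56.7 to between 216 and 436 (median 252) in WT (2.25 ± 0.44, adjusted p = 0.00311), and had 1.37 ± 0.46 in Ceacam1-/- (adjusted p = 0.0924). Ccne1, cyclin E1, which starts S phase with Cdk2, was at 32.9, 121, 37.3 and 76.3 in WT and 77.6 to 211 (median 176) with laser (1.43 ± 0.47, adjusted p = 0.0801). In Ceacam1-/- it was at 83.3, 11.98, 11.6 and 113 without laser and 116 to 211 (median 142) with laser, without overlap (2.09 ± 0.49, adjusted p = 0.0200). Ccne2, cyclin E2, had 0.43 ± 0.26 in WT (adjusted p = 0.360) and rose by 1.04 ± 0.27 in Ceacam1-/- (adjusted p = 0.0317), and was the only gene of the 46 for which library 28 (140) was the lowest of its group.

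**Figure D3:**
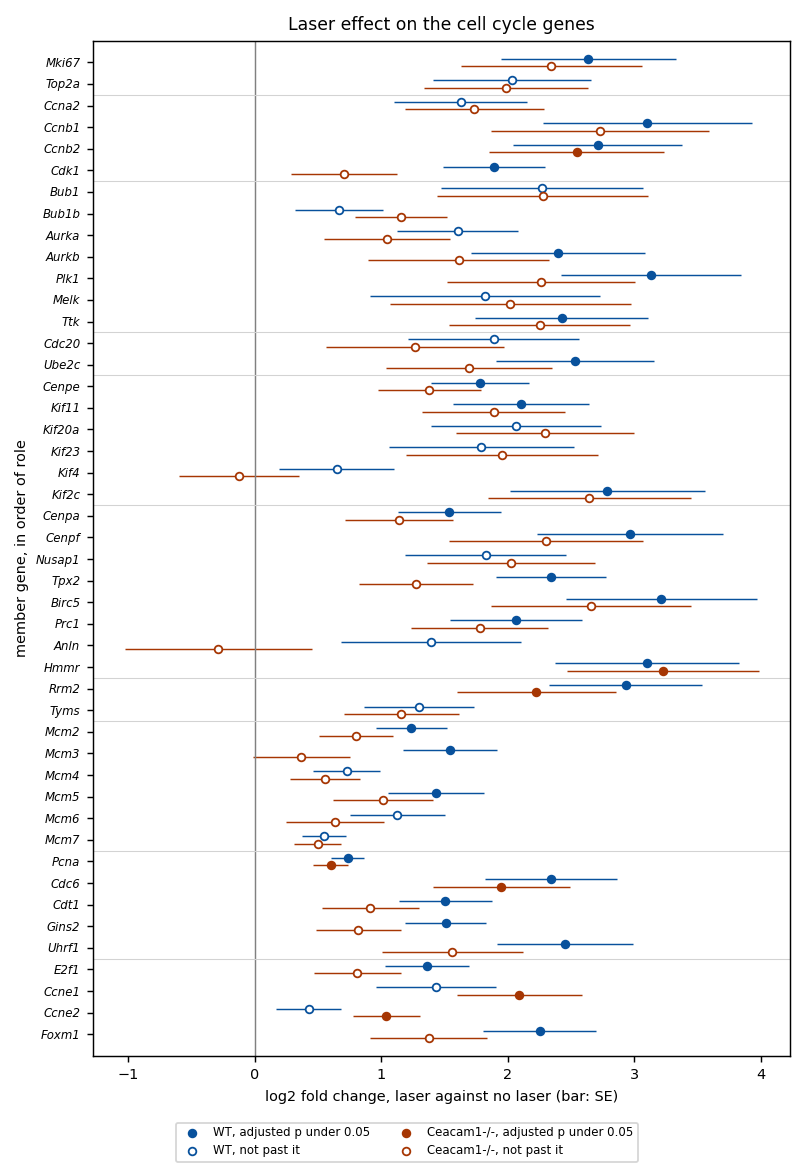
Log2 fold change with laser (points) with its SE (bars) for the 46 genes, ordered by role, in WT (blue) and Ceacam1-/- (brown); filled points are past an adjusted p of 0.05. All 46 WT points lie above 0, and in Ceacam1-/- all but Kif4 and Anln.

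In Ceacam1-/- choroid 7 of the 46 genes rose with laser and none fell: Ccnb2, Hmmr, Rrm2, Cdc6, Pcna, Ccne1 and Ccne2. Of all genes 2.07% were called higher and 1.65% lower, and 39 of the 46 had an unadjusted p under 0.05, as had 3997 of 19950 genes. The fold change was above 0 in 44 genes, with a median of 1.59 beside 0.02 for all genes tested, and groups without overlap were found for 2 genes, Ccne1 and Pcna (background 1.17%). By the exact permutation test, two-sided, 7 of the 13 representative genes had p under 0.05 and 2, Pcna and Ccne1, after adjustment over 52 tests (adjusted p = 0.0210). Of the genes called, 5 were called in both genotypes, 17.9% of the 28 in WT and 71.4% of the 7 in Ceacam1-/-, and 16 of the 46 were called in neither. These counts rest on few libraries without laser. Without Ceacam1-/- library 28, 36 genes were called in Ceacam1-/-, without library 24 or 25, 0, and without library 18, 12. Of all genes 3.99% were called without library 28, 3.75% without 18, and 1.28% and 0.742% without 24 and 25. With all libraries the share was 3.72%. The Ceacam1-/- count also changed with WT libraries, which share the fit, its spread and its filter. It was 11 without WT library 21 (3.63% of all genes) and 4 without WT library 3, 11 or 13 (3%, 2.94% and 3.14%). It was 3 without Ceacam1-/- library 5 or 6 (2.34% and 3.01% of all genes) and 4 without 4, 7 or 15 (3.92%, 2.55% and 3.53%). In WT the count was 7 without library 21, 14 without 26, 19 without 27 and 34 without 22. Of all genes 2.4%, 4.49%, 2.78% and 3.62% were called in these fits, against 5.28% with all libraries. Leaving out the 5 libraries with high surface epithelium markers, a choice made after seeing the data, gave 35 genes in WT and 35 in Ceacam1-/-, with medians of 2.72 and 2.44, where 2.48% and 2.96% of all genes were called. This left libraries 21 and 26 as the only WT libraries without laser. It removed 28, 22 and 27, which had the highest cell cycle means of those without laser, so that the fold changes depend on the choice itself. The log2 fold change of Ccnb1 was then 5.06 in WT and 3.88 in Ceacam1-/-, and that of Mki67 3.75 and 3.35. Leaving out the 5 with high photoreceptor markers gave 24 and 21, with medians of 1.52 and 1.63, where 8.39% and 14.9% of all genes were called against 5.28% and 3.72% with all libraries. In WT Mki67 (1.87, adjusted p = 0.0884) and Ccnb1 (2.06, adjusted p = 0.109) were then not called.

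Whether the laser effect differed between genotypes was tested by the interaction. By limma, 0 of 46 genes passed, and 1 had an unadjusted p under 0.05, where 0% and 6.22% of 19950 genes did. That gene was Mcm3, with 1.54 ± 0.37 in WT, 0.37 ± 0.39 in Ceacam1-/- and a difference of -1.17 ± 0.53 (adjusted p = 0.640). Next were Cdk1 (-1.18 ± 0.58) and Tpx2 (-1.07 ± 0.63). The median SE of the interaction was 0.97 for mitotic and 0.53 for replication genes, and single differences carry their own SE as given. The direction of the set depended on a few libraries: 36 of the 46 differences were negative (median -0.40), but 33 were positive without Ceacam1-/- library 28 (median 0.23) and 28 without the photoreceptor libraries (median 0.12). Without the surface epithelium libraries 9 were positive (median -0.45), without WT library 22, 3 (median -0.73), and without WT library 21, 22 (median -0.06). No gene was called in any of these fits. The higher number of genes called in WT is therefore not shown to be a difference between the genotypes.

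Genotype was compared at each laser state. Without laser 0 of 46 genes passed, 0 had an unadjusted p under 0.05 (limma; 0% and 1.53% of 20057 genes), and the permutation p was at least 0.2 in the 13 representative genes, where 4 against 4 libraries allow 0.0286. The lowest p were those of Ccne2 (-0.57 ± 0.29), Mcm3 (0.62 ± 0.52) and Pcna (0.18 ± 0.17). The study, by DESeq2 with sex in its model, did report differentially expressed genes between these genotypes in choroid. Sex is not in the fit here, and Ceacam1 itself did not pass in it (limma, adjusted p = 0.999). A lack of called genes here thus does not show that the genotypes are alike. Of the 46 differences 29 were negative (median -0.19), and this direction too turned with single libraries. Without Ceacam1-/- library 28, 42 were negative (median -0.71) and 4 had an unadjusted p under 0.05, and without WT library 22, 33 were positive (median 0.19). Without Ceacam1-/- library 23, 24 or 25 the median was 0.08, 0.08 or 0.01, and without WT library 21 or 26 it was -0.51 or -0.31. It was -0.17 without the surface epithelium libraries, over the 44 genes that then passed the filter, and -0.44 without the photoreceptor libraries. With laser 43 of the 46 genes were lower in Ceacam1-/-, with a median log2 difference of -0.58 beside 0.01 for all genes. Of these 0 passed the adjusted threshold (background 0.0202%), and 20 had an unadjusted p under 0.05, which 22.7% of 19757 genes had. This 20 was 4 with the Y-linked covariate, 5 with all 24 libraries in the fit, 11 with array weights, 7 without library 14 or 18, 10 without WT library 1 and 13 without WT library 3 or 12, and it was higher, at 28 and 29, without Ceacam1-/- library 5 or 6. The shares of all genes at an unadjusted p under 0.05 are those of the first fit at each laser state. Counts from the other fits in this paragraph have no such background beside them. Cdc6 (-1.0004 ± 0.32, adjusted p = 0.133), Rrm2 (-0.76 ± 0.26, adjusted p = 0.144) and Cdk1 (-0.87 ± 0.31, adjusted p = 0.157) had the lowest p, and no gene separated the genotypes without overlap. By exact permutation, two-sided, 6 of 13 representative genes had p under 0.05. After adjustment over 52 such tests 1 passed, Rrm2 (exact permutation, adjusted p = 0.0420). Those 52 tests include the 13 of the laser effect in WT, with exact permutation p of 0.0056 at most. The adjusted p of Rrm2 depends on these low values, and adjustment within the 13 genotype tests alone was not made. Without Ceacam1-/- libraries 14, 15 and 18, which are those with high photoreceptor markers, the median was -0.16 and 0 genes had an unadjusted p under 0.05. Markers of some other cell types were also lower in Ceacam1-/- in this comparison: 8 of 8 skeletal muscle markers (median -1.43) and 8 of 9 pigment epithelium markers (median -1.56) had an unadjusted p under 0.05, and 0 of either passed after adjustment. All 15 myeloid markers were lower (median -0.50, 2 with an unadjusted p under 0.05). The 10 photoreceptor markers were all higher (median 2.02, 6 with an unadjusted p under 0.05). Of these 2 lists 0 passed after adjustment. The mean log2 level of the endothelial markers was 9.56, 10.53 and 9.97 in libraries 14, 15 and 18, against 11.15 to 11.998 in the other laser libraries. Their part in the result was not tested. Libraries 18 and 14 held the lowest value of their group in 25 and 15 of the 46 genes.

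Other genes of the same pathways, on lists that do not hold the 46, were called in part. Of 40 other mitotic genes 17 rose in WT and 8 in Ceacam1-/-, none fell, and the medians were 1.74 and 1.54; of all genes 4.23% and 2.07% were called higher. Nuf2 of the kinetochore rose from 50.3 ± 42.5 (SD, n = 4) to 345 ± 113 (n = 9) in WT (3.21 ± 0.63, adjusted p = 0.00278) and by 2.88 ± 0.65 in Ceacam1-/- (adjusted p = 0.0155). The condensin subunit Smc4 rose from 803 ± 161 to 1634 ± 396 in WT (1.01 ± 0.17, adjusted p = 0.000714) and from 852 ± 197 to 1584 ± 140 in Ceacam1-/- (0.92 ± 0.18, adjusted p = 0.00593). H2az1, a histone variant and the most abundant of the list, had 0.77 ± 0.24 (adjusted p = 0.0665) and 0.58 ± 0.25. Of 23 other replication genes 5 rose in WT and 2 in Ceacam1-/- (medians 0.80 and 0.54). Dbf4, the activator of the kinase that fires origins, rose from 73.3 ± 49.2 to 271 ± 56.7 in WT (2.04 ± 0.34, adjusted p = 0.000609), Tk1, Cdc45, Gmnn and Rfc3 rose with it, and Cdc45 and Orc1 rose in Ceacam1-/-.

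The lists that govern entry to the cycle gave 0 or 1 called gene each, against 4.23% of all genes higher in WT and 2.07% in Ceacam1-/-, so that their counts do not stand apart from the background. Of 6 D cyclins and interphase kinases 1 rose in WT, Cdk4, the partner of D cyclins (0.88 ± 0.26, adjusted p = 0.0458), and 0 in Ceacam1-/-. The most abundant, Ccnd2, had 0.64 ± 0.48 and -0.36 ± 0.50. Of 7 CDK inhibitors 6 passed the filter, 0 were called in WT, and Cdkn2c, an inhibitor of Cdk4 and Cdk6, was higher in Ceacam1-/- (1.02 ± 0.27, adjusted p = 0.0389). Of 15 pocket protein, E2F and MuvB genes 1 rose in WT, the repressor E2f7, itself a gene of S phase (2.00 ± 0.45, adjusted p = 0.00915), and 0 in Ceacam1-/-. Their medians were 0.08 and 0.21. Of 12 p53 target genes 0 were called in WT and 1, Btg2, an antiproliferative factor, in Ceacam1-/- (1.096 ± 0.30, adjusted p = 0.0402), with medians of 0.15 and 0.14.

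**Figure D4:**
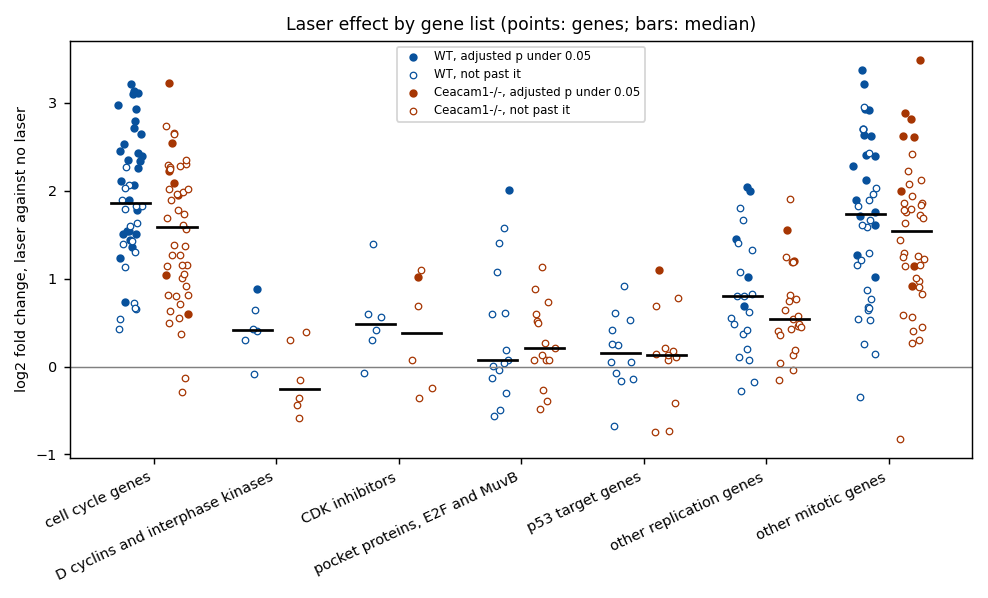
Log2 fold change with laser of each gene in the cell cycle set and in 6 further lists (points; filled past an adjusted p of 0.05), with the median of each list as a bar, in WT (blue) and Ceacam1-/- (brown). The medians of the cell cycle genes (1.86 and 1.59) and of the other mitotic genes (1.74 and 1.54) stand highest, and that of the pocket protein, E2F and MuvB genes is near 0.

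Markers of some cell types also rose with laser. Of 15 myeloid markers 14 rose in WT and 9 in Ceacam1-/- (medians 2.26 and 1.56; background 4.23% and 2.07%), among them Ctss (2.94 ± 0.36 and 2.17 ± 0.38) and Lyz2, the most abundant, which went from 8289 ± 2680 (SD, n = 4) to 56126 ± 19146 (n = 9) in WT. The mean log2 level of this list was 8.90 to 9.94 in WT libraries without laser and 11.26 to 12.15 with laser. In Ceacam1-/- it was 9.27 to 9.98 without laser and 11.60 to 11.98 in 4 laser libraries, but 10.51, 10.33 and 9.79 in libraries 14, 15 and 18. Library 28, in which the cell cycle genes were high without laser, had a myeloid level of 9.98 and the highest surface epithelium level of all. Of 7 fibroblast markers Postn, Col3a1 and Lum rose in WT and Lum in Ceacam1-/-. Of 11 endothelial, 9 pigment epithelium and 10 photoreceptor markers 0 were called in either genotype, and neither were any of the 10 surface epithelium markers, whose medians were -1.31 and -2.54. The pericyte, melanocyte, lens, skeletal muscle, lymphocyte and erythroid lists gave 0 called genes too. With laser in Ceacam1-/- the medians were nonetheless -2.09 for skeletal muscle (7 of 8 markers at an unadjusted p under 0.05) and -1.56 for pigment epithelium (7 of 9), and the photoreceptor median was 2.23, against -0.95, -0.04 and -1.40 in WT. Vim of the Mueller glia list rose in WT and S100a8 of the neutrophil list in both genotypes. The part of any of these cell types in the cell cycle result was not tested.

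**Figure D5:**
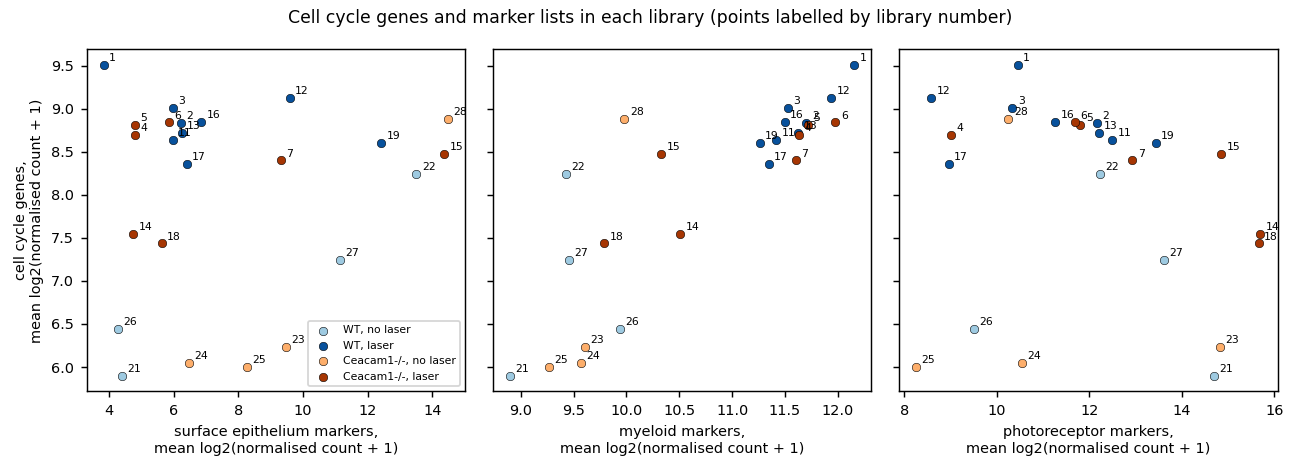
Mean log2(normalised read count + 1) of the 46 cell cycle genes in each library against that of the surface epithelium, myeloid and photoreceptor markers, coloured by group and labelled by library number. Libraries 28, 22 and 27 are the highest of the 8 without laser on the vertical axis and on the surface epithelium axis, and laser libraries 14 and 18, lowest of theirs, lie at the right of the photoreceptor panel.

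Within the laser groups Mki67 was set against 7 genes fixed as partners, on the log2 scale. These are 14 relations, with exact permutation p adjusted over them. In the 7 Ceacam1-/- laser libraries Mki67 followed Top2a (Pearson's r = 0.956, adjusted p = 0.00556; Spearman's ρ = 0.964, adjusted p = 0.0194) and Mcm5 (r = 0.953, adjusted p = 0.0139; ρ = 0.929, adjusted p = 0.0315), and also the endothelial gene Pecam1 (r = 0.902, adjusted p = 0.0285; ρ = 0.964, adjusted p = 0.0194). Without the 2 libraries farthest from the median, 14 and 18, r was 0.940, 0.730 and 0.775. Library 15, which has high photoreceptor markers like those 2, was kept. The mean log2 level of the endothelial markers was 9.56, 10.53 and 9.97 in libraries 14, 15 and 18. In the other Ceacam1-/- laser libraries it was 11.29 to 11.78. The part of tissue content in these relations was not tested. In the 9 WT laser libraries the relation to Top2a (r = 0.854, adjusted p = 0.0205; ρ = 0.800, adjusted p = 0.0387) fell to r = 0.281 without libraries 1 and 12, so that it rests on those, and Mcm5 gave r = 0.638 (adjusted p = 0.111). Pecam1 (r = -0.109), the macrophage gene Csf1r (r = -0.180) and Krt5 (r = -0.099) showed no relation past the threshold there, although r for Krt5 was 0.726 without libraries 1 and 12. In Ceacam1-/- Csf1r and the collagen gene Col1a1 gave r of 0.774 and 0.816, with adjusted p = 0.0630 and 0.0606. Krt5 gave r = 0.066 there (adjusted p = 0.918) and r = -0.728 without libraries 14 and 18, the opposite sign to WT.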

How the data were processed

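Total RNA of choroid from 24 samples was made into SMART-Seq libraries by the authors. Per the labels, the submitters' processing notes name FastQC 0.11.5, Salmon 1.10.3, DESeq2 1.44.0 and GRCm39, and the study's methods state pseudo-alignment and import of estimated reads with tximport. The deposited signal values are normalised counts of 56065 genes, scaled by the authors for library size and transcript length, so that they are not whole reads and the depth is known only roughly: the values of 1 library add up to 23704300 at least and 35094400 at most. Groups were taken from the labels. Symbols, positions and transcript lengths came from GENCODE vM39 (GRCm39), which matched 99.1% of the identifiers. All members matched.

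Tests used limma 3.58.1 (R 4.3.3), its variance prior following the mean, on log2(value + 1), a scale that understates changes of low genes. Genes with a mean of at least 10 over the libraries of a fit were tested, with Benjamini-Hochberg adjustment over all of them and a threshold of 0.05. The laser effects and their interaction came from 1 model of 24 libraries, the genotype effects from the 8 libraries without and the 16 with laser. Single genes were also compared by exact permutation. The relations of 1 partner gene of Mki67, counted in the adjustment, are not reported here. The method was tested on simulated data. The labels do not give sex, which the study's own model used. Gene lists, members and the rule for named genes (13 representative members, up to 10 further members of lowest p per laser effect, up to 3 in other comparisons, and up to 5 genes of lowest p plus the most abundant gene of each other list) were chosen with earlier results of these data known. Genes described beyond that rule were named to account for all members of a role, or after their values were seen (Kif4, Anln, Melk). Of the members, 5 have a processed pseudogene of the same name (Ccnb1, Ccnb2, Kif4, Tyms and Pcna), between which reads could be split. Every fit was repeated with each library left out, with array weights, with a Y-linked covariate, with a pseudocount of 0.5 or 10, without the filter or with one at 50, after scaling by upper quartile or by quantiles, with the robust or trend-free form of limma, and with another choice of libraries. Promoter sequences are those of RefSeq, GRCm38.p6, placed on GRCm39 by exact match. Permutations ran in scipy 1.17.1 and plots were drawn in matplotlib 3.10.9, under Python 3.11.15 (numpy 2.4.6; pandas 2.3.3).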

Additional observations from a re-analysis of the deposited data

Results flagged for a closer look

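In 19 of 184 sets of 1 gene in 1 group, the highest or lowest library lay farther from the others than Dixon's 95% limit allows, where chance alone flags about 1 in 20 sets, or 9.2. Of these, 8 were high values of Ceacam1-/- library 28 without laser: 1668 for Top2a, 788 for Ccnb1, 525 for Plk1, 1288 for Cdc20, 294 for Cenpf, 252 for Kif11, 258 for Kif2c and 643 for Mcm5. Mcm2 was high in WT library 22 without laser (435). With laser, WT library 1 was high in Aurkb (592), Cenpf (1292) and Prc1 (1247). WT library 17 was low in Kif4 (88.2), Anln (210), Mcm4 (417), Ccne1 (77.6) and Ccne2 (171). Ceacam1-/- library 14 was low in Mcm2 (233) and Mcm4 (268). Sets of a library share their RNA and are not independent of each other.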

How the results depend on the processing

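For the laser effects, the number of cell cycle genes called was less stable than their direction: between 44 and 46 of the 46 were above 0 in every setting. For the interaction and for genotype without laser, where 0 genes were called throughout, the direction itself was unstable, with 3 to 33 and 4 to 33 genes above 0 when single libraries were left out, and array weights gave 29 above 0 for the interaction. Each of the 55 named results kept its direction in every setting run. With each library left out in turn, between 7 and 37 genes were called for laser in WT and between 0 and 36 in Ceacam1-/-. Of all genes 2.4% and 5.6% were called in the WT fits with 7 and 37. In Ceacam1-/- 1.28% or 0.742% were called in the fits with 0 and 3.99% in that with 36. Array weights gave 44 in WT and 42 in Ceacam1-/-, where 32.6% and 17.8% of all genes were then called. In Ceacam1-/- the count was 3 with no filter and 4 with the Y-linked covariate, where 1.08% and 3.18% of all genes were called. It was 0 with the libraries of that genotype alone in the fit, where 38 genes were called in all. The WT libraries alone gave 40 in WT, with 2274 genes in all. Settings chosen after seeing the data gave, in Ceacam1-/-, 35 without the surface epithelium libraries, 21 without the photoreceptor libraries and 23 with the surface epithelium level as a covariate, where 2.96%, 14.9% and 3.70% of all genes were called. The same settings gave 35, 24 and 37 in WT, where 2.48%, 8.39% and 5% of all genes were called. The 35 in WT rest on libraries 21 and 26 alone as WT libraries without laser. The genotype comparisons and the interaction called 0 of the 46 genes in every setting by limma. Of the settings of named results, 1815 left the side of the threshold as it was, 113 took a result below it and 87 above it; the cause was not tested. No paired analysis was possible because the labels name no mouse or other unit that libraries of different groups share.

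The number of libraries without laser limits the precision: the median SE of a mitotic gene on the log2 scale was 0.67 for the laser effect in WT and 1.13 for genotype without laser.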
